A study of Mus musculus with 8 samples.

Results

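The mRNAs of 10 purinergic and adenosine receptors were followed in murine bone-marrow-derived macrophages (BMDMs). The members were named in advance by gene symbol and found by their Ensembl identifiers in GENCODE annotation: the ATP-gated P2X channels P2rx4 and P2rx7, the G-protein-coupled P2Y receptors P2ry2, P2ry6, P2ry12, P2ry13 and P2ry14, and the adenosine receptors Adora2a, Adora2b and Adora3. All 10 were among the 55359 genes listed, and all 10 passed the filter on low values that left 16309 genes for testing. Total RNA was sequenced in 4 groups with n = 2 samples each. Ctrl denotes naïve Mϕ, LPS denotes naïve Mϕ kept for 6 h in LPS (100 ng/mL) plus IFNγ (100 U/mL), Eff denotes efferocytic Mϕ, and LPSEff denotes efferocytic Mϕ that received the same stimulation. Efferocytic Mϕ had been kept for 16 h with apoptotic NIH-3T3 CA fibroblasts at 5 apoptotic cells per Mϕ before these were washed off. NIH-3T3 CA is a murine fibroblast line, used here as a single clone (D10), that carries a human caspase-8 domain and dies when 10 nM of a dimerizer joins its copies; whether Ctrl Mϕ also met the dimerizer is not given in the sources used here. The BMDMs of all groups came from wildtype C57BL/6 mice, adult males and females, were grown with M-CSF and GM-CSF (20 ng/mL each), and were isolated with CD45 MicroBeads. The labels do not say whether the samples of a group came from separate mice or cultures, so p-values measure the spread between these samples, which may be technical.

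Extracellular nucleotides leave stressed and dying cells and act as danger and find-me signals for Mϕ. ATP opens P2X channels, whereas P2Y receptors read ATP, UTP, ADP, UDP or UDP-sugars through G proteins. Ectoenzymes turn ATP into adenosine, which acts on the adenosine receptors, and the receptor encoded by Adora2a is known to dampen inflammatory responses of Mϕ through cAMP.

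Values are normalized counts, i.e., reads per gene divided by a size factor of the sample. Reads before normalization ranged from 3481288 to 12020918 per sample, so that 3 reads corresponded to between 1.73 and 5.71 normalized counts. Macrophage markers were present throughout, with a sum over 10 genes between 109216 and 166572. Markers of other cell types were counted as well, and whether they stem from such cells was not tested. The sum of 15 fibroblast markers ranged from 206 to 409 in Ctrl, from 956 to 1030 in LPS, from 2100 to 3862 in Eff and from 5320 to 6110 in LPSEff, its defining markers Col1a1, Col1a2, Col3a1 and Pdgfrb were above 0 in every sample, and 6 of its 13 tested genes were called higher in Eff than in Ctrl, as were 6 in LPSEff against LPS. In Ctrl 1, 12 of the 15 were above 0. In LPS vs Ctrl, groups without fibroblast co-culture, 3 of the 13 were called higher. Pdgfrb had 15.2 and 11.6 normalized counts in Ctrl and 246 and 245 in LPS. The sum of 7 dendritic cell markers ranged from 1368 to 2922 without and from 6886 to 17213 with stimulation, mostly through Ccr7 (1151 to 2128 and 5720 to 14409). The sum of 8 neutrophil markers ranged from 694 to 1466 without and from 1743 to 2501 with stimulation, with 3 of 5 tested genes called higher in LPS vs Ctrl and 1 in LPSEff vs Eff. Their part in the receptor values was not tested. Fewer cells of a type and less RNA per cell cannot be told apart in such bulk samples.

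The receptors lie in clusters, which matters for reading their values. On chromosome 5 of GRCm39, P2rx7 (122781942 to 122830400, plus strand) ends 15140 bases before P2rx4 (122845541 to 122867803, plus strand). P2ry6 (100585308 to 100624173) and P2ry2 (100640649 to 100663957) are neighbours on the minus strand of chromosome 7. P2ry14 (59021276 to 59061134), P2ry13 (59114539 to 59118304) and P2ry12 (59123682 to 59170429) follow each other on the minus strand of chromosome 3, inside the span of Med12l. Med12l is on the opposite strand, and P2ry12 shares 294 bases (9.17% of its exon length) with its exons. P2rx4, P2rx7, P2ry2 and P2ry14 also share exon bases with a noncoding gene on the opposite strand, at most 653 (6.52%, P2ry2). P2rx7 shares 119 exon bases (1.22%) with Mir8115 on its own strand. Whether these overlaps affected the counts, which were low for P2ry12, was not tested. Adora3 (chromosome 3, 105778174 to 105816242, plus strand) shares 670 exon bases (18.0%) with Gm53046 and 154 (4.13%) with Tmigd3 on the same strand, so its counts are uncertain. Adora2a (chromosome 10, 75152560 to 75170628) and Adora2b (chromosome 11, 62139804 to 62157279) overlap no other annotated gene.

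Promoter windows from RefSeq (GRCm38.p6) covered 250 bases before and 50 after an annotated start. They were held for 8 of the 10 receptors, 13 windows in all, and each matched GRCm39 at a single place. P2ry6 and Adora2a had no entry. The bases before the start are shown for the neighbours P2rx7 and P2rx4, whose mRNAs are set side by side in the results, and for P2ry14. Capitals mark matches to the AP-1 motif TGANTCA. The windows are at chr5:122781740-122781989 (plus), chr5:122845357-122845606 (plus) and chr3:59060914-59061163 (minus) of GRCm39, written 5′ to 3′ on the strand of the gene.
P2rx7: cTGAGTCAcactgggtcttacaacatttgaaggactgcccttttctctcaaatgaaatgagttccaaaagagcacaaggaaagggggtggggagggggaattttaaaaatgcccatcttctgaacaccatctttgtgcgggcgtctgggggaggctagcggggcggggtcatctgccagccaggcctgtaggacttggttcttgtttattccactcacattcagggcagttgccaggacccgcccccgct
P2rx4: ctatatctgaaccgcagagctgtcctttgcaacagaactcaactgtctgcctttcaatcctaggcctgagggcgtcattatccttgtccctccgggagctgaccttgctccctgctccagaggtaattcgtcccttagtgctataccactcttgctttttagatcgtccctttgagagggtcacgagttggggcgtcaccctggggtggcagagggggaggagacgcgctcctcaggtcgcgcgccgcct
P2ry14: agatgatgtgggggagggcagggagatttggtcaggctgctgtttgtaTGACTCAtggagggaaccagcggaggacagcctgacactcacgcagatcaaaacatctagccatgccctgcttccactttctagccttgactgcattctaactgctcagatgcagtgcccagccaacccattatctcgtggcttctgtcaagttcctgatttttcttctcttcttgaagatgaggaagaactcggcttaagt
On either strand, AP-1 was found in 4 of the 13 receptor windows, against 7.81% of all 32851 windows. These were the P2rx7 window shown, 249 bases before its start, 2 windows of P2ry14 (202 and 144 bases before their starts) and the Adora3 window (98 bases before). The P2rx4 window held none. P2ry12 held a kappaB motif 51 bases before its start (8.46% of all windows). The GAS motif TTCNNNGAA (8.30%), the ISRE core (3.44%) and the CRE core TGACGTCA (1.79%) were in 0 of the 13. No matches overlapped each other. A match is a description of letters only, and receptors whose mRNA fell and whose mRNA rose both held AP-1.

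To compare levels between receptors, normalized counts were divided by exon length in kilobases. This length was the union of all annotated exons, 1851 bases for Adora2b and 11234 for P2ry14. Which exons the Mϕ used was not tested, and the order depends on this length. Before division, P2ry14 had the highest mean in each group, in Ctrl 1262 normalized counts against 308 for Adora2b. In Ctrl, Adora2b was highest with 166 ± 2.25 normalized counts per kb (SD, n = 2), above P2ry14 with 112 ± 21.8, and the groups of values did not overlap. P2ry14, P2rx4 (101 ± 8.04), P2ry13 (97.5 ± 48.3), P2ry6 (66.4 ± 21.2), Adora3 (39.7 ± 30.9) and P2rx7 (36.1 ± 8.01) formed a run in which each overlapped with its next member, and P2rx7 did not overlap with Adora2a after it. Adora2a (14.6 ± 2.78), P2ry2 (9.98 ± 2.02) and P2ry12 (9.45 ± 8.32) came last, and of these neighbours in the order P2ry2 overlapped with P2ry12. Adora2b had the highest mean in all 4 groups, although in LPS its range overlapped with that of P2ry14. In LPS, Adora2a took the third place with 171 ± 16.1 per kb and overlapped with neither neighbour in the order, P2ry14 (226 ± 46.8) above it and P2rx4 (138 ± 2.27) below it. Adora3 was last in LPS with 6.26 ± 3.46 per kb. In Eff, the order ran from Adora2b (201 ± 65.3) over P2rx4 (100.4 ± 0.404), P2ry14 (86.7 ± 23.7), P2ry13 (75.8 ± 22.1), P2ry6 (68.6 ± 9.52), Adora3 (29.1 ± 24.5), P2rx7 (24.4 ± 5.50), P2ry2 (13.8 ± 2.11) and Adora2a (7.94 ± 0.790) to P2ry12 (7.30 ± 3.37). There, P2rx4 through P2ry6 overlapped in sequence, as did Adora3 with P2rx7 and Adora2a with P2ry12. In LPSEff, Adora2b (418 ± 215), P2ry14 (209 ± 25.5), P2rx4 (175 ± 14.04), Adora2a (106 ± 27.7), P2ry13 (56.2 ± 9.64) and P2ry6 (27.8 ± 6.02) were each apart from the next, whereas P2ry2 (14.7 ± 6.07) overlapped with P2rx7 (14.4 ± 1.95) and P2ry12 (4.90 ± 2.03) with Adora3 (4.40 ± 2.92).

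**Figure D1:**
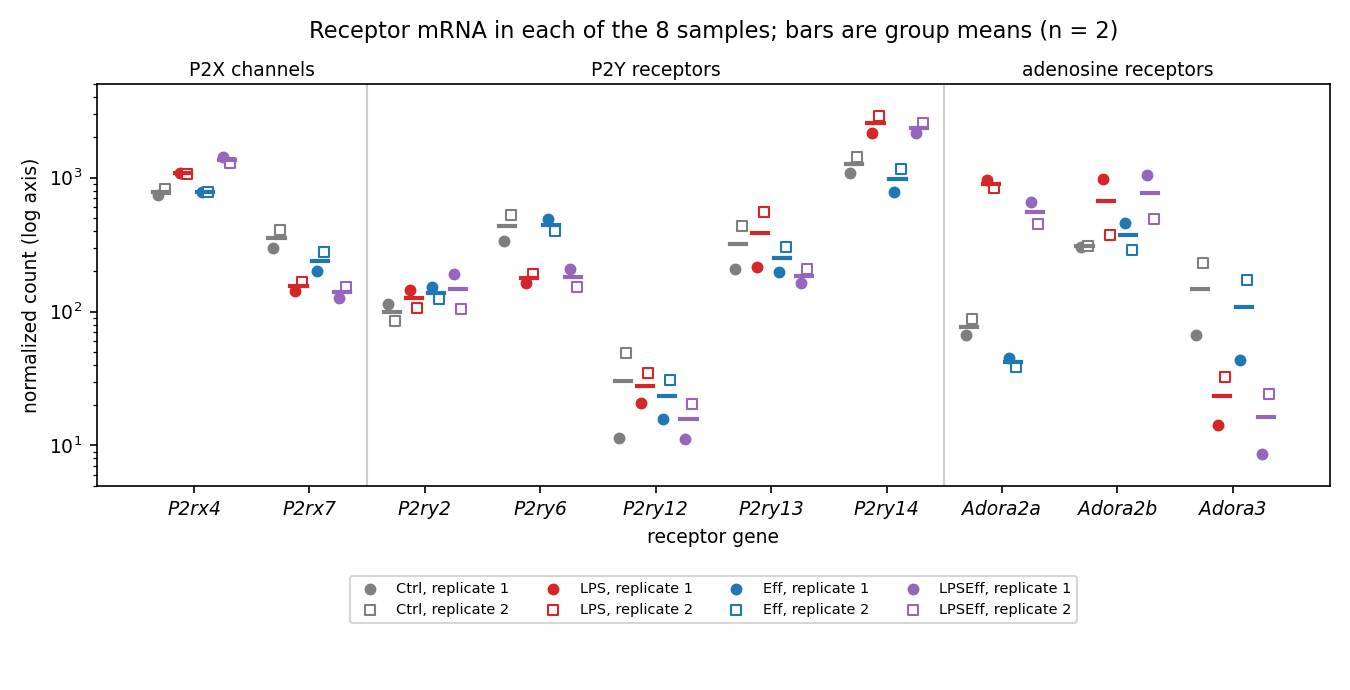
Normalized counts (log axis) of the 10 receptors in each of the 8 samples, with filled circles for replicate 1, open squares for replicate 2 and bars for group means (n = 2). Adora2a lay between 38.8 and 87.3 in the unstimulated and between 453 and 958 in the stimulated samples, and Adora3 between 43.8 and 230 against 8.71 and 32.5.

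LPS/IFNγ split the receptors. Against Ctrl, Adora2a was 11.6-fold and P2ry14 2.01-fold higher, whereas P2ry6 was 2.38-fold and P2rx7 2.24-fold lower. In efferocytic Mϕ, Adora2a (12.8-fold), P2ry14 (2.45-fold) and P2rx4 (1.74-fold) were higher and P2ry6 (2.47-fold) was lower. Rescaling all samples to equal totals, which moved the median log2 fold change of all genes to -0.40 and -0.44, ended the calls of P2ry14 in naïve and of P2rx4 in efferocytic Mϕ and turned no called direction. In either comparison, 4 of the 10 receptors passed a Benjamini-Hochberg adjusted p of 0.05 with limma (2 higher and 2 lower in LPS vs Ctrl, 3 higher and 1 lower in LPSEff vs Eff). Among all 16309 genes, 24.0% were called in LPS vs Ctrl (12.4% higher, 11.6% lower) and 19.7% in LPSEff vs Eff (10.7% higher, 8.95% lower). The groups did not overlap for 7 of the 10 receptors in either comparison, against 59.3% and 59.9% of all genes. The median log2 fold change over the receptors was 0.26 and -0.19, beside -0.01 and 0.01 over all genes. Leaving out 1 sample ended some of these calls, as given below for each receptor, and turned no called direction. In LPS vs Ctrl, log2 fold changes then ran from 0.79 to 1.22 for P2ry14, -1.58 to -0.92 for P2ry6 and -1.39 to -0.94 for P2rx7. In LPSEff vs Eff, they ran from 1.01 to 1.57 for P2ry14, 0.71 to 0.88 for P2rx4 and -1.53 to -1.09 for P2ry6. Only Adora2a kept its call throughout. With 2 samples per group, the smallest p that an exact permutation test allows is 0.333.

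Among the adenosine receptors, Adora2a, which raises cAMP through Gs, changed most. Its normalized counts were 66.6 and 87.3 in Ctrl and 958 and 839 in LPS, while Eff had 44.7 and 38.8 and LPSEff had 659 and 453. All stimulated samples were thus above all unstimulated ones. The log2 fold change was 3.54 (SE 0.25, adjusted p = 8.29e-05) in LPS vs Ctrl and 3.68 (SE 0.25, adjusted p = 5.99e-05) in LPSEff vs Eff. It stayed called when any sample was left out, with log2 fold changes from 3.35 to 3.73 and from 3.41 to 3.95.

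Adora2b, the low-affinity adenosine receptor that also couples to Gs, did not pass the test. It had 305 and 311 normalized counts in Ctrl and 975 and 374 in LPS, while Eff had 458 and 287 and LPSEff had 1055 and 492. The stimulated samples were above the unstimulated ones in either comparison, but the stimulated pairs lay far apart. Its log2 fold changes were 0.97 (SE 0.49, 95% interval -0.16 to 2.10, adjusted p = 0.202) and 0.99 (SE 0.49, 95% interval -0.14 to 2.12, adjusted p = 0.211). Over its other settings the adjusted p in LPS vs Ctrl ran from 0.0136 to 0.456. Leaving out 1 sample gave log2 fold changes from 0.28 to 1.66 in LPS vs Ctrl and from 0.44 to 1.54 in LPSEff vs Eff.

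Adora3, a Gi-coupled receptor known from mast cells, had the largest fold drop in mean under LPS/IFNγ of the 10, with a wide spread between samples of a group. Its normalized counts were 66.6 and 230 in Ctrl and 14.2 and 32.5 in LPS, while Eff had 43.8 and 173 and LPSEff had 8.71 and 24.1. Stimulated and unstimulated samples did not overlap, yet in each group the sample numbered 2 was 2.28 to 3.95 times the sample numbered 1. The log2 fold changes were -2.47 (SE 0.83, adjusted p = 0.0661) and -2.50 (SE 0.83, adjusted p = 0.0717), past no threshold. A fit with the replicate number as a block called both, but the labels do not say that a number marks a shared preparation. DESeq2 on the recovered reads called both (adjusted p = 0.00253 and 0.00201), as did equal totals (0.0259 and 0.0243, with log2 fold changes of -2.45 and -2.50 relative to the median of all genes), within ranges of 7.7e-05 to 0.0672 and 8.14e-05 to 0.0773 over the settings. Leaving out 1 sample gave log2 fold changes from -3.35 to -1.58 in LPS vs Ctrl and from -3.48 to -1.52 in LPSEff vs Eff. Gm53046, with which it shares exon bases, had 30.5 and 90.2 normalized counts in Ctrl and 11.6 and 14.2 in LPS, while Eff had 21.0 and 73.4 and LPSEff had 3.17 and 8.88, and it fell by 2.66 on the log2 scale in LPSEff vs Eff (adjusted p = 0.0402). The sum of 5 mast cell markers also moved with stimulation, from between 691 and 998 to between 162 and 402, through Kit (677 to 983 and 145 to 269). Tpsb2 was between 0 and 17.6 without and between 5.17 and 25.4 with stimulation, Mcpt4 had at most 1 read, and the median log2 fold change of the 3 tested markers was 0.14 in LPS vs Ctrl and 0.65 in LPSEff vs Eff. Of the defining markers, Cpa3 was between 5.26 and 55.5 without and between 7.92 and 110 with stimulation, with 3.64 to 12.1 times as much in the sample numbered 2, and Ms4a2 was at 0 in Ctrl 1 and LPSEff 1 and at most 5.08 elsewhere. Their part in the Adora3 values was not tested.

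Opposite directions were seen for the 2 P2X channels, although in neither comparison were both called. P2rx7 opens at high ATP and is known for driving inflammasome activation. It had 297 and 408 normalized counts in Ctrl and 144 and 167 in LPS, while Eff had 201 and 277 and LPSEff had 127 and 154. Each stimulated sample lay below each unstimulated one. The log2 fold change was -1.17 (SE 0.26, adjusted p = 0.0130) in LPS vs Ctrl and -0.75 (SE 0.26, adjusted p = 0.0770) in LPSEff vs Eff, where it was not called. Without Ctrl 2 or LPS 1 the first was no longer called (adjusted p = 0.0937 and 0.0608, with 0.000225 to 0.0285 over the other settings), and with equal totals the second was called (adjusted p = 0.00522, with 0.00422 to 0.171 over the settings), although relative to the median of all genes its log2 fold change was then -0.77.

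P2rx4, a channel of higher ATP affinity found on lysosomes and at the surface, had 741 and 829 normalized counts in Ctrl and 1090 and 1065 in LPS, while Eff had 784 and 780 and LPSEff had 1438 and 1283. Stimulated samples were above unstimulated ones. The log2 fold change was 0.80 (SE 0.17, adjusted p = 0.0119) in LPSEff vs Eff and 0.46 (SE 0.17, adjusted p = 0.0817) in LPS vs Ctrl. With equal totals the latter was 0.06 (adjusted p = 0.813 with limma), and 0.46 above the median of all genes. The former call was lost without Eff 1, Eff 2 or LPSEff 1 (adjusted p = 0.0765, 0.0717 and 0.0870) and with equal totals (log2 fold change 0.35, adjusted p = 0.140, and 0.78 above the median of all genes), within 0.000931 to 0.140 over the settings. Per kb, P2rx4 exceeded P2rx7 by 3.12 and 2.55 times in Ctrl, 9.52 and 8.02 times in LPS, 4.90 and 3.53 times in Eff and 14.2 and 10.5 times in LPSEff. The balance of the neighbouring channels thus lay further on the side of P2rx4 in each stimulated sample than in any unstimulated one.

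The P2Y receptors moved in different directions. P2ry14, a Gi-coupled receptor for UDP-glucose, had 1089 and 1435 normalized counts in Ctrl and 2169 and 2912 in LPS, while Eff had 786 and 1163 and LPSEff had 2148 and 2553. Stimulated samples were above all unstimulated ones. The log2 fold change was 1.01 (SE 0.26, adjusted p = 0.0257) in LPS vs Ctrl and 1.29 (SE 0.26, adjusted p = 0.0106) in LPSEff vs Eff. The former was not called without Ctrl 1, Ctrl 2 or LPS 2 (adjusted p = 0.153, 0.0506 and 0.112) or with equal totals (log2 fold change 0.61, adjusted p = 0.0639, and 1.01 above the median of all genes), with 0.000155 to 0.0639 over the settings. The latter was not called without Eff 1 or LPSEff 2 (adjusted p = 0.0806 and 0.0625, with 1.5e-05 to 0.0201 over the other settings).

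P2ry6, the Gq-coupled receptor for UDP that is known for phagocytosis by microglia, had 335 and 530 normalized counts in Ctrl and 163 and 192 in LPS, while Eff had 491 and 403 and LPSEff had 209 and 154. Stimulated samples lay below all unstimulated ones. It fell by 1.25 (SE 0.28, adjusted p = 0.0135) and by 1.31 (SE 0.28, adjusted p = 0.0128) on the log2 scale. The first call was lost without Ctrl 2 or LPS 1 (adjusted p = 0.0902 and 0.0618, with 0.00101 to 0.0313 over the other settings) and the second without Eff 1 or LPSEff 2 (adjusted p = 0.0873 and 0.0763, with 0.000779 to 0.0146 over the other settings).

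P2ry2, the receptor for ATP and UTP that guides phagocytes to dying cells, had 114 and 85.6 normalized counts in Ctrl and 146 and 106 in LPS, while Eff had 153 and 124 and LPSEff had 190 and 104. Its log2 fold changes under LPS/IFNγ were 0.33 (95% interval -0.45 to 1.10) and 0.03 (-0.75 to 0.81), and its groups overlapped. Per kb, its neighbour P2ry6 was 4.51 to 9.52 times as high in the unstimulated samples and 1.69 to 2.79 times as high in the stimulated ones, so that this ratio did not overlap between them.

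The ADP receptors P2ry13 and P2ry12 gave no call. P2ry13 had 209 and 435 normalized counts in Ctrl and 216 and 556 in LPS, while Eff had 199 and 302 and LPSEff had 163 and 208. Its samples overlapped in both stimulation comparisons, with log2 fold changes of 0.20 (95% interval -0.92 to 1.32) and -0.41 (-1.53 to 0.71). P2ry12, known from platelets and microglia, had the lowest mean per kb of the 5 P2Y receptors in each group, with 11.4 and 49.2 normalized counts in Ctrl and 20.7 and 34.5 in LPS, while Eff had 15.8 and 31.1 and LPSEff had 11.1 and 20.3. It rested on 6 to 85 reads per sample, and its log2 fold changes of 0.15 (-1.46 to 1.77) and -0.53 (-2.15 to 1.08) had intervals on either side of 0.

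**Figure D2:**
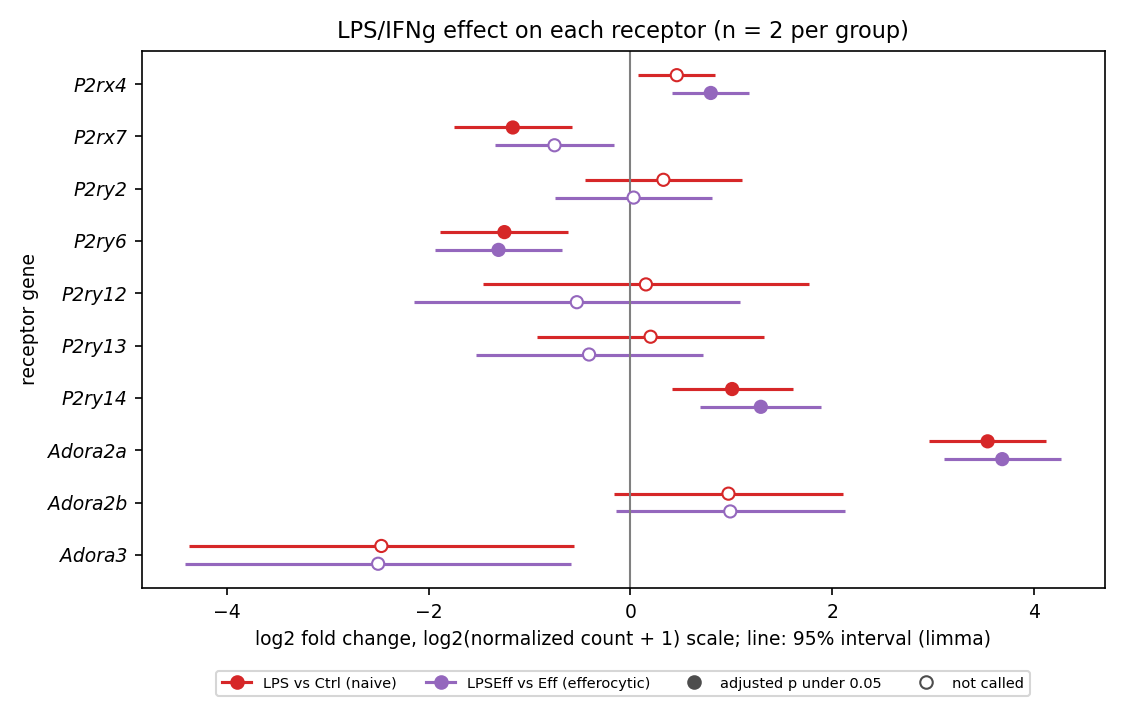
Log2 fold change of each receptor under LPS/IFNγ in naïve Mϕ (red, LPS vs Ctrl) and in efferocytic Mϕ (purple, LPSEff vs Eff), with 95% intervals from limma and filled points where the adjusted p was under 0.05 (n = 2 per group). Adora2a, P2ry14 and P2ry6 were called in both comparisons, P2rx7 in naïve and P2rx4 in efferocytic Mϕ, and the intervals of both comparisons overlapped for each receptor.

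Whether efferocytosis altered the response to LPS/IFNγ was asked by the difference between both stimulation effects. No receptor and none of the 16309 genes was called (0%) by limma, edgeR or DESeq2. At an unadjusted p under 0.05, 311 genes and 0 receptors passed with limma, and 369 and 244 genes with edgeR and DESeq2. The difference was 0.14 (95% interval -0.68 to 0.97) for Adora2a, 0.41 (-0.42 to 1.24) for P2rx7, 0.34 (-0.20 to 0.87) for P2rx4, 0.28 (-0.56 to 1.13) for P2ry14 and -0.06 (-0.95 to 0.84) for P2ry6 on the log2 scale. P2rx7 and P2rx4, each called in a single context, were therefore not shown to respond differently in naïve and efferocytic Mϕ.

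Next, the receptors were compared between efferocytic and naïve Mϕ. None of the 10 was called, neither without (Eff vs Ctrl) nor with stimulation (LPSEff vs LPS), by limma, edgeR or DESeq2. At an unadjusted p under 0.05, 1 receptor passed in either comparison with limma, Adora2a in both, beside 1000 and 1679 of the 16309 genes. At the adjusted threshold, 0.251% and 0.773% of all genes were called. The groups did not overlap for 3 receptors in Eff vs Ctrl and for 4 in LPSEff vs LPS, against 34.1% and 36.3% of all genes. The median log2 fold change of the receptors was -0.20 and -0.12, beside -0.01 and -0.0025 over all genes. The sum of the fibroblast markers given above was higher in Eff than in Ctrl and in LPSEff than in LPS. Of 13 tested markers, 6 were called higher in either comparison and 0 lower. Not each marker was higher, as Pdgfrb had 246 and 245 normalized counts in LPS against 82.3 and 157 in LPSEff. The part of these markers in the receptor values was not tested.

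Adora2a had lower values after efferocytosis in either context. Both Eff samples (44.7 and 38.8) lay below both Ctrl samples (66.6 and 87.3), and both LPSEff samples (659 and 453) lay below both LPS samples (958 and 839). The log2 fold changes were -0.86 (SE 0.25, unadjusted p = 0.00921, adjusted p = 0.426 with limma) and -0.71 (SE 0.25, unadjusted p = 0.0221, adjusted p = 0.364). Over the other settings the adjusted p ran from 0.0658 to 0.725 and from 0.0776 to 0.575, so that neither was called. These comparisons share no sample with each other, but each shares its groups with the stimulation comparisons.

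The other receptors without overlap did not pass the test either. P2rx7 had a log2 fold change of -0.56 (95% interval -1.15 to 0.03) and P2ry2 of 0.47 (-0.31 to 1.25) in Eff vs Ctrl. In LPSEff vs LPS, it was 0.33 (-0.05 to 0.71) for P2rx4, -0.91 (-2.03 to 0.21) for P2ry13 and -0.79 (-2.41 to 0.82) for P2ry12. The P2ry13 samples in LPSEff (163 and 208) were just below the lower of the LPS samples (216), while the other LPS sample was at 556.

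The remaining values were close to 0 or wide. For P2ry6 the log2 fold change was 0.08 (95% interval -0.56 to 0.71) in Eff vs Ctrl and 0.02 (-0.61 to 0.65) in LPSEff vs LPS, and for P2rx4 it was -0.003 (-0.38 to 0.38) in Eff vs Ctrl. P2ry14 had -0.39 (-0.99 to 0.21) and -0.10 (-0.70 to 0.50), Adora2b had 0.24 (-0.90 to 1.37) and 0.26 (-0.88 to 1.39), and Adora3 had -0.50 (-2.41 to 1.41) and -0.53 (-2.44 to 1.38). The intervals were narrowest for P2rx4 and widest for Adora3 among the 10.

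**Figure D3:**
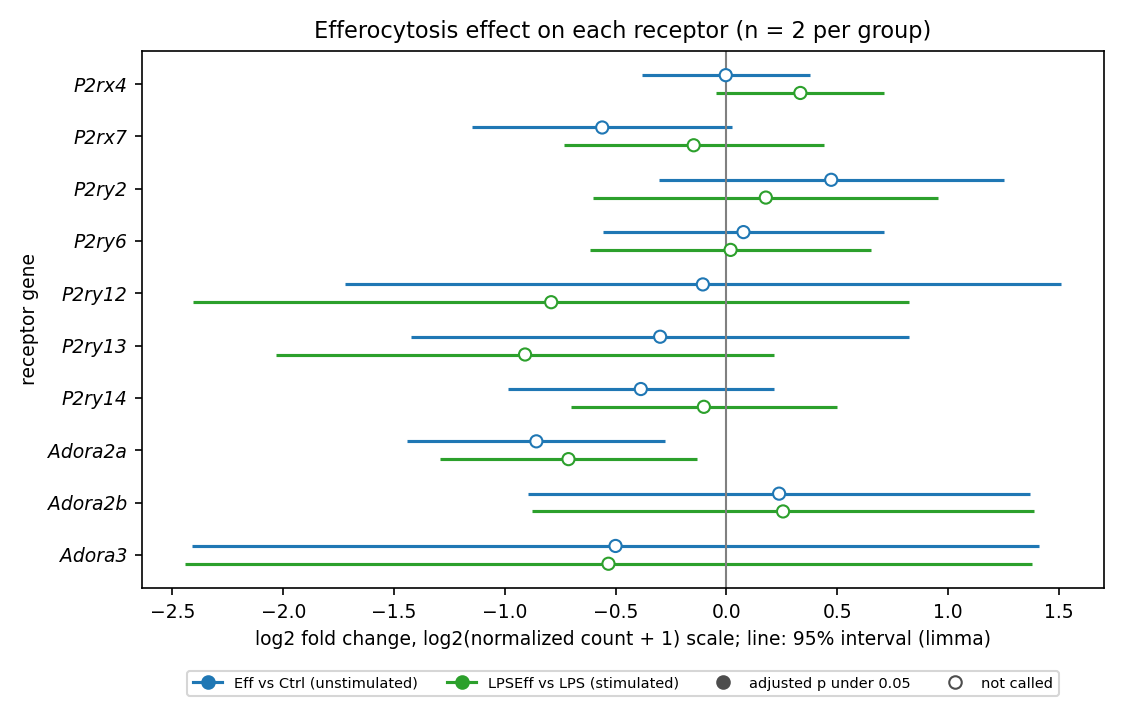
Log2 fold change of each receptor with efferocytosis in unstimulated (blue, Eff vs Ctrl) and stimulated Mϕ (green, LPSEff vs LPS), with 95% intervals from limma (n = 2 per group). All points are open because no adjusted p was under 0.05, and the intervals of Adora2a lie below 0 in both comparisons.

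The genes whose levels followed a called receptor most closely over the 8 samples were listed for Adora2a and P2ry6 by Pearson's r of log2 values. For Adora2a these were Nod2 (r = 0.997), Traf1 (0.996) and Slc2a6 (0.996), each of which ranged widely, Nod2 from 132 to 1207 normalized counts. For P2ry6 these were Chchd5 (r = 0.989), Nsmce3 (0.984) and Gm54518 (0.980), with Chchd5 between 56.9 and 93.1. The points share their 4 groups and libraries, and the likeness is given as a description.

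The receptors were then set beside 69 other genes of the purinergic system, of which 49 were tested. LPS/IFNγ raised 9 and lowered 9 of them in naïve Mϕ and raised 10 and lowered 10 in efferocytic Mϕ, beside the 24.0% and 19.7% of all genes called. Their median log2 fold change was -0.19 and 0.03.

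Of 6 other tested receptors, P2ry1, a Gq-coupled ADP receptor, was called. It fell from 466 ± 113 to 62.7 ± 11.9 normalized counts (SD, n = 2) in naïve and from 370 ± 91.8 to 38.6 ± 2.53 in efferocytic Mϕ. The log2 fold changes were -2.87 (SE 0.28, adjusted p = 0.000355) and -3.21 (SE 0.28, adjusted p = 0.000186).

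Of 9 tested genes for nucleotide release, 3 rose and 2 fell in either context. Calhm6, a member of the CALHM channel family, had 0 and 3.47 normalized counts in Ctrl and 1.75 and 4.23 in Eff, at most 6 reads, against 1061 and 1749 in LPS and 1165 and 1165 in LPSEff. Gja1, which encodes the hemichannel protein connexin 43, rose from 52.4 ± 12.01 to 434 ± 147 and from 166 ± 54.3 to 1267 ± 98.0. Lrrc8c, a subunit of volume-regulated anion channels, rose by 1.00 in naïve and by 0.76 in efferocytic Mϕ on the log2 scale (adjusted p = 0.0139 and 0.0462). Its relative Lrrc8b fell by 0.87 and by 0.99 (adjusted p = 0.0131 and 0.00899). Slc17a9, the vesicular nucleotide transporter, fell by 1.83 (adjusted p = 0.0197) and by 1.79 (adjusted p = 0.0245). Gja1 is also a fibroblast gene. The sum of the fibroblast markers was higher in the efferocytic groups, and Gja1 rose in naïve Mϕ too. The part of fibroblast RNA in its values was not tested.

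Of 12 tested genes listed for extracellular nucleotide breakdown, 3 rose and 2 fell in naïve and 4 rose and 2 fell in efferocytic Mϕ. Not all of the list encode ectoenzymes, and those that rose were Acp3, Pnp and Pnp2 in both contexts and Enpp2 in efferocytic Mϕ. Acp3, a phosphatase that can produce adenosine from AMP, had 148 ± 28.8 normalized counts in Ctrl, 1294 ± 181 in LPS, 305 ± 1.57 in Eff and 3414 ± 359 in LPSEff. Alone among the 49 genes it was called in an efferocytosis comparison, 1.40 higher on the log2 scale in LPSEff than in LPS (SE 0.21, adjusted p = 0.0314). Nt5e (CD73), the main enzyme for this step, fell from 180 ± 52.8 to 48.4 ± 21.1 in LPS vs Ctrl (log2 fold change -1.91, adjusted p = 0.00686) and from 325 ± 82.8 to 69.3 ± 2.82 in LPSEff vs Eff (-2.19, adjusted p = 0.00433).

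Purine nucleoside phosphorylase, which cleaves inosine, is encoded by Pnp and its near-identical copy Pnp2. Reads that match both may be counted for neither, so the counts of both are uncertain. Pnp rose from 265 ± 46.7 to 3122 ± 431 and from 281 ± 11.9 to 2757 ± 34.6, and Pnp2 from 14.1 ± 11.9 to 114 ± 11.9 and from 7.12 ± 1.09 to 62.0 ± 9.27. Enpp2 (autotaxin) rose by 2.56 on the log2 scale (SE 0.58, adjusted p = 0.0171) in LPSEff vs Eff, from 5.37 ± 1.39 to 39.0 ± 21.0, at low counts, and had a log2 fold change of 1.84 (adjusted p = 0.0522) in LPS vs Ctrl.

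Of 5 tested genes for adenosine uptake and phosphorylation, 1 rose and 2 fell in naïve and 1 rose and 1 fell in efferocytic Mϕ. The concentrative nucleoside transporter Slc28a2 rose from 15.5 ± 8.40 to 143 ± 61.7 and from 10.9 ± 5.52 to 58.7 ± 19.2. The equilibrative transporter Slc29a1 fell by 1.37 (SE 0.23, adjusted p = 0.00371) and by 0.96 (SE 0.23, adjusted p = 0.0194) on the log2 scale. The lysosomal Slc29a3 fell by 0.76 (SE 0.19, adjusted p = 0.0236) in naïve Mϕ and had a log2 fold change of -0.62 (adjusted p = 0.0576) in efferocytic Mϕ.

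Of 17 tested genes for coupling of the receptors, i.e., G proteins, adenylyl cyclases and phospholipases C, 2 rose and 2 fell in naïve and 2 rose and 4 fell in efferocytic Mϕ. Adcy6 rose from 284 ± 34.8 to 774 ± 196 and from 146 ± 1.44 to 341 ± 19.8, whereas Adcy9 fell from 168 ± 21.9 to 73.4 ± 0.429 and from 164 ± 6.49 to 43.0 ± 3.76. Adcy7 fell by 0.99 (adjusted p = 0.0151) and by 1.32 (adjusted p = 0.00513). The phospholipase Plcb4 rose by 2.15 (adjusted p = 0.00280) and by 1.19 (adjusted p = 0.0391). Plcb2 (log2 fold change -1.53, adjusted p = 0.0306) and the Gq-family subunit Gna15 (-1.34, adjusted p = 0.0337) fell in efferocytic Mϕ, and in naïve Mϕ their log2 fold changes were -1.07 (adjusted p = 0.0912) and -1.14 (adjusted p = 0.0540). In the difference between both stimulation effects, 0 of the 49 genes were called.

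**Figure D4:**
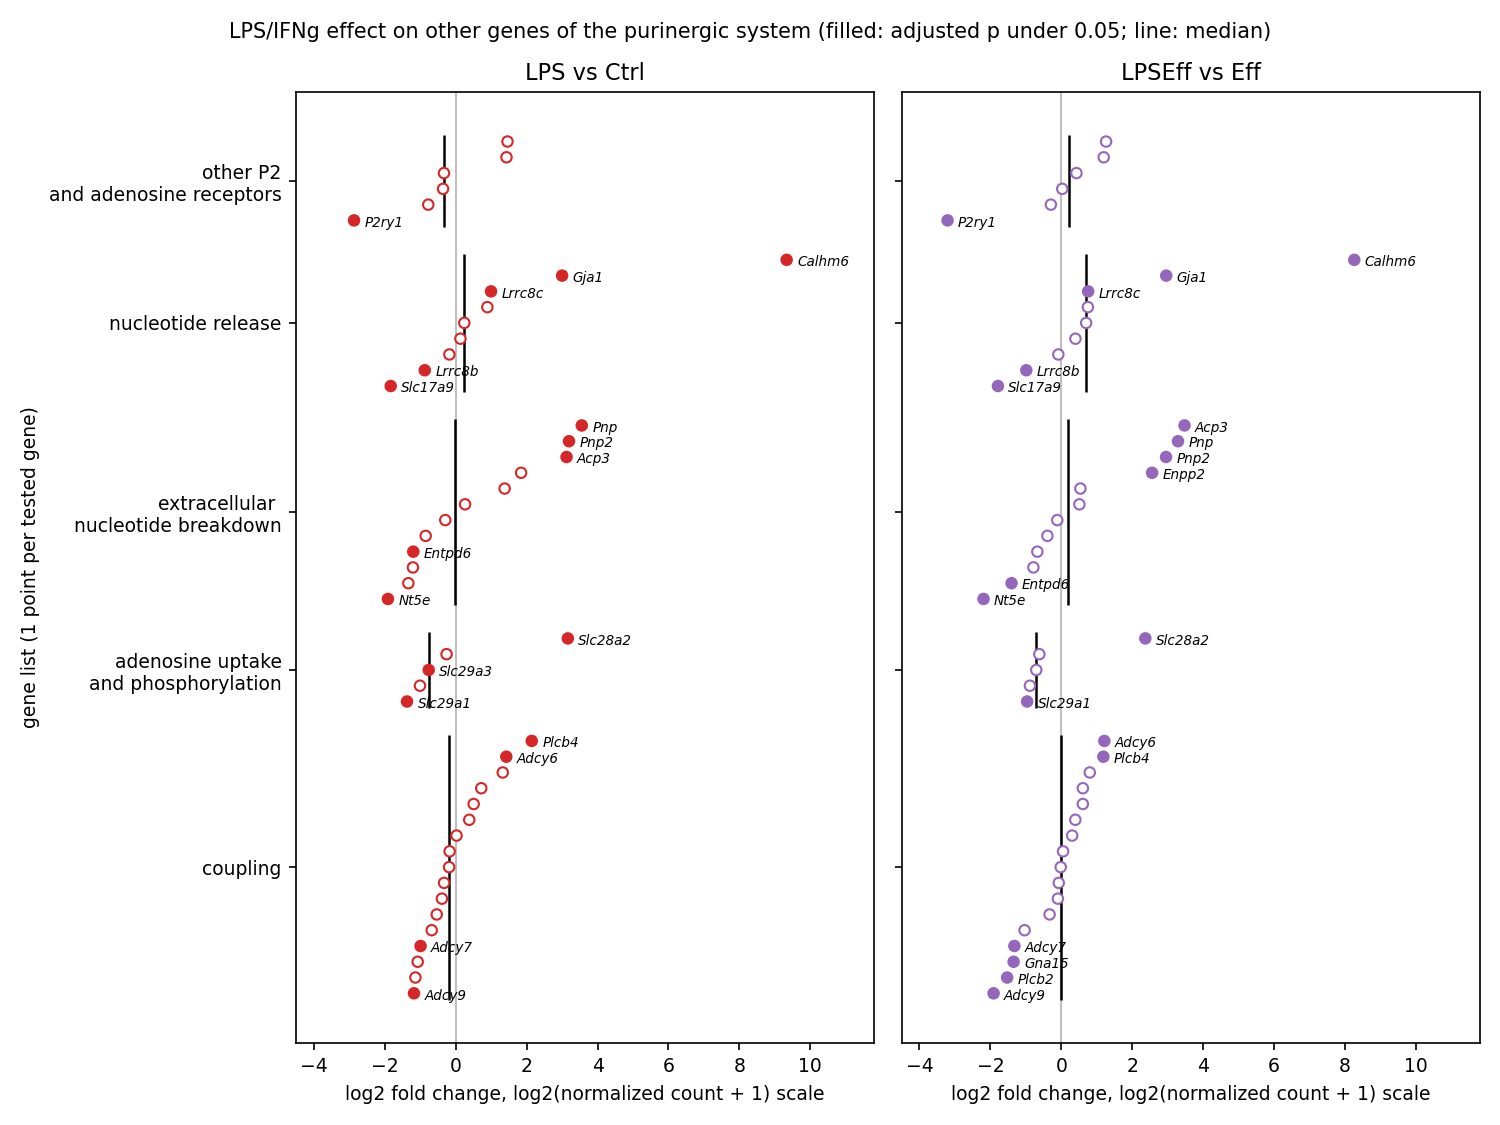
Log2 fold change under LPS/IFNγ of the 49 other tested genes of the purinergic system in 5 lists, in naïve (left) and efferocytic Mϕ (right), with filled and named points where the adjusted p was under 0.05 and a line at each list's median. Calhm6 lies far to the right, with at most 6 reads in unstimulated samples and between 1061 and 1749 normalized counts in stimulated ones. P2ry1 lies furthest to the left in both panels.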

How the data were processed

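BMDMs of 4 groups (2 samples each, grouped by the sample labels) were analysed by total RNA sequencing. Per the labels and the methods, the authors used cutadapt for trimming, bowtie2 to discard rRNA reads, STAR for mapping to mm39, and htseq-count with default settings for counting. The authors deposited a signal per gene, the normalized count (read count divided by a size factor of the sample). Tool versions and the annotation release are not given in the sources used here. Gene names (54749 of 55359 identifiers, 98.9%) came from GENCODE of the same build. The labels give 7 days of differentiation in one place and 6 in another.

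All values were whole multiples of the worth of 1 read (tolerance 0.01), which gave back the reads (median 8431112.5 per sample). Floors of 3 reads cover counting error only. The main test was limma 3.58.1 (R 4.3.3) (trend option), applied to log2(normalized count + 1) of the 16309 genes whose mean reached 10, with all 8 samples in a fit of 4 group means, 4 residual degrees of freedom and Benjamini-Hochberg adjustment over all tested genes (called under 0.05). Fold changes are on this scale, which understates changes of low genes. Intervals are 95%. Stimulation was compared in LPS vs Ctrl and LPSEff vs Eff, efferocytosis was compared in LPSEff vs LPS and Eff vs Ctrl, and an interaction term tested whether the stimulation effects differed.

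The receptors and all gene lists were chosen with earlier results of these data known, so no list was tested as a set. All 10 receptors are named, and of other purinergic genes up to 4 called genes per list and contrast, the largest changes first. The samples of a group are numbered 1 and 2 as in their labels. Alternatives were pseudocounts of 0.5 and 5, a minimum mean of 50 or no filter, fits with only the groups compared, a replicate block, samples rescaled to equal totals, edgeR 4.0.16 with TMM and DESeq2 1.42.0 on the recovered reads, and leaving out each sample. Scripts were tested on simulated data.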

Additional observations from a re-analysis of the deposited data

How the results depend on the processing

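With the replicate number as a block, 7 receptors were called in LPS vs Ctrl (Adora2b, Adora3 and P2rx4 in addition), 7 in LPSEff vs Eff (Adora2b, Adora3 and P2rx7 in addition) and 1 in LPSEff vs LPS (P2ry13), while 41.2%, 37.0% and 6.97% of all genes were called. The block changed no other count of receptors. The labels do not say that a number marks a shared preparation, and there are only 2 numbers. Deviations of same-numbered samples from their group means correlated at r = 0.404 to 0.595 across genes.

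With equal totals, 24.8% and 21.8% of the called genes were higher in LPS vs Ctrl and LPSEff vs Eff, against 51.5% and 54.6%. The sign of the unshifted value turned for P2rx4 in Eff vs Ctrl (0.0091), P2ry2 in LPS vs Ctrl (-0.0712) and LPSEff vs Eff (-0.42), P2ry6 in LPSEff vs LPS (-0.018), P2ry12 (-0.23) and P2ry13 (-0.20) in LPS vs Ctrl, none of them called. Relative to the median of all genes, which moved with this scaling, P2ry2 (0.33 and 0.02), P2ry6 (0.02), P2ry12 (0.17) and P2ry13 (0.20) kept their sign. P2ry12 in LPS vs Ctrl also turned with edgeR (-0.19) and DESeq2 (-0.14). Beside these 8 turned signs, 333 of the other log2 fold changes kept their direction and side of the threshold, 13 were called in addition and 2 lost their call, before leaving out samples. The causes were not tested.

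Leaving out a sample gave 1 to 4 called receptors in LPS vs Ctrl and 2 to 3 in LPSEff vs Eff, and 0 in the other comparisons. The remaining sample of that group is then assumed to vary like the others. Signs of uncalled values turned, with log2 fold changes in Eff vs Ctrl from -0.0845 to 0.0782 for P2rx4, -0.25 to 0.41 for P2ry6, -1.11 to 0.90 for P2ry12, -0.82 to 0.23 for P2ry13, -0.10 to 0.57 for Adora2b and -1.48 to 0.48 for Adora3. In LPSEff vs LPS they ran from -0.25 to 0.61 for P2ry2, -0.20 to 0.24 for P2ry6, -0.31 to 0.11 for P2ry14, -0.44 to 0.95 for Adora2b and -1.22 to 0.15 for Adora3. In LPS vs Ctrl the range was -0.85 to 1.16 for P2ry12 and -0.48 to 0.88 for P2ry13, and in LPSEff vs Eff it was -0.40 to 0.46 for P2ry2. The stricter filter left P2ry12 out.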
